A study of Mus musculus with 24 samples.

Results

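The genes Nefl, Nefm, Nes, Sox2, Stmn2, Tubb3, Ptprz1, Ncam1, Slitrk6 and Lrrc4c, 10 genes of the neural lineage, were followed through oncogenic transformation of mouse embryonic fibroblasts. They are 10 of the 19661 genes with a named probe set on the arrays. They were picked because earlier results on the same arrays had shown Nefl, Sox2 and Slitrk6 higher and Stmn2, Tubb3 and Ptprz1 lower in transformed cells, so their transformed minus untransformed values are a description and carry no test. Each gene had 1 probe set, and all 10 passed the filter on low values, which a gene can do through the state in which it is high.

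The fibroblasts came from 6 E13.5 embryos, of which 3 were Eif4e+/- and 3 were wild type (WT). Eif4e encodes the protein that binds the mRNA cap at the start of translation. Each embryo gave a culture transformed with Ras and Myc and an early-passage primary culture left untransformed, so there were 3 Eif4e+/- transformed, 3 WT transformed, 3 Eif4e+/- untransformed and 3 WT untransformed cultures, all grown in 10% serum. Whether a transformed culture was 1 clone or a pool was not given in the sources used here, and a mouse embryonic fibroblast culture is a mixed population of connective tissue cells grown out of an embryo. Every culture gave total RNA and RNA of heavy polysomes, in which an mRNA carries many ribosomes, and both were measured on 24 Affymetrix Mouse Gene 1.0 ST arrays with values in log2 RMA intensity.

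As background, the neurofilament light and medium chains (Nefl, Nefm) build the filaments of axons, and nestin (Nes) is the filament protein of neural progenitors, also made by some cells of mesenchymal origin. Sox2 is a transcription factor of pluripotent cells and neural progenitors. Stathmin 2 (Stmn2) regulates microtubules in growing neurites, and Tubb3 is the beta tubulin by which neurons are commonly recognised. At the cell surface, Ptprz1 is a receptor tyrosine phosphatase of glia and neural progenitors, Ncam1 is an adhesion molecule, and Slitrk6 and Lrrc4c are leucine-rich repeat proteins that act in neurite growth and synapse formation.

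Promoter sequences are shown for a pair of genes that were higher and a pair that were lower in transformed cells, because the members moved in groups of opposite direction. RefSeq's promoter table for GRCm38.p6 held 6 of the 10 genes, and the 250 bases before the start that this table uses were searched. For Sox2 and Tubb3 that is the start of the annotated gene, whereas for Ptprz1 and Slitrk6 it lies inside the annotated gene, so that the window overlaps the gene's first bases. The annotated Ptprz1 gene starts at 22875315, so most of its window lies inside the gene. The windows lie at chr3:34649745-34649994 on the plus strand for Sox2, chr14:110755150-110755399 on the minus strand for Slitrk6, chr8:123411303-123411552 on the plus strand for Tubb3 and chr6:22875252-22875501 on the plus strand for Ptprz1. Capitals mark matches on either strand to the E-box CACGTG, the GC box GGGCGG, the CCAAT box, the TATA box TATAAA and the Sox core CATTGT, none of which contains another.
Sox2: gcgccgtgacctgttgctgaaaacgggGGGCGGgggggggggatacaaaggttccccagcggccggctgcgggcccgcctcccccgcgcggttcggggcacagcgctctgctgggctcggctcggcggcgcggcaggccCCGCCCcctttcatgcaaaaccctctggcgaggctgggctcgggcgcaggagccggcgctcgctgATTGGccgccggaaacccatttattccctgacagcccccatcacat
Slitrk6: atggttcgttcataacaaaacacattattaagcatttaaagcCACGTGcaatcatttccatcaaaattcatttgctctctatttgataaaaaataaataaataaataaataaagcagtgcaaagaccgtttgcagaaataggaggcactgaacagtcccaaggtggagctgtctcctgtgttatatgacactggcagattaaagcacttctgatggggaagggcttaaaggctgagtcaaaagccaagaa
Tubb3: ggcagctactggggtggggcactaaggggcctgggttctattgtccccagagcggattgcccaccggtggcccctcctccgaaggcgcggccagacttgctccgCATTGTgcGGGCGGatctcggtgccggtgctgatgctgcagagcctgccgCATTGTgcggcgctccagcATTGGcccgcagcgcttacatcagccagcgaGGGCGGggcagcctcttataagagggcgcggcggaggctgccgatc
Ptprz1: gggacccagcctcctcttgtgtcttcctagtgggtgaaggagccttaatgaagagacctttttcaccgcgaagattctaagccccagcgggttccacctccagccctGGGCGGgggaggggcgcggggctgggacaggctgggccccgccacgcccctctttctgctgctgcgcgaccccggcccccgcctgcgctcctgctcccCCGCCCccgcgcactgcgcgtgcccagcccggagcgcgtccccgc
The Sox2 promoter was 72% G and C and held 2 GC boxes and 1 CCAAT box. The Slitrk6 promoter, of a gene that was also higher in transformed cells, was 37.2% G and C and held 1 E-box and 0 GC boxes. The Tubb3 promoter (68%) held 2 GC boxes, 1 CCAAT box and 2 Sox cores. The Ptprz1 window (71.6%) held 2 GC boxes, both inside the annotated gene. Across 32851 promoters of this length the median G and C content was 52.4%, and the GC box was present in 32.7%, the CCAAT box in 33.9%, the TATA box in 12.4%, the Sox core in 10.7% and the E-box in 6.02%. A match describes the letters of the window and is not a binding site.

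The level below which a probe set could not be told from background was taken, on each array, as the 95th percentile of 1192 probe sets of odorant and vomeronasal receptors. It lay at 6.57 to 6.88 on the log2 scale in total RNA and at 3.21 to 3.57 in polysomal RNA. Of the 12 polysomal arrays, those of the WT embryo 3 transformed culture and the WT embryo 1 untransformed culture had the smallest SD over probe sets, 1.25 and 1.15 against a range up to 1.44, and values without them are given beside the polysomal differences of the 10 genes. In total RNA the targeted gene, Eif4e, had 9.10, 8.84 and 9.21 in Eif4e+/- transformed cultures against 9.80, 9.67 and 9.40 in WT transformed cultures. It had 8.69, 8.88 and 8.83 in Eif4e+/- untransformed cultures against 9.21, 9.05 and 9.03 in WT untransformed cultures. The genotypes did not overlap in total RNA of either state (exact permutation p = 0.1, two-sided, the lower limit for 3 against 3). The same held for 10.2% of all genes in transformed and 10.9% in untransformed cells. Neither difference passed by limma (adjusted p = 0.2 in transformed cells), and in polysomal RNA the Eif4e values of the genotypes overlapped in both states.

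Among the filament genes, Nefl was higher in transformed cells of every embryo. In total RNA its log2 intensity was 9.28, 10.15 and 9.29 in Eif4e+/- transformed cultures and 9.71, 11.21 and 8.40 in WT transformed cultures. In untransformed cultures it was 6.73, 6.78 and 6.94 in Eif4e+/- cells and 6.60, 6.66 and 6.94 in WT cells. All transformed values lay above all untransformed values, and 4 of 6 untransformed cultures exceeded background by a small margin. The mean difference, transformed minus untransformed, was 2.90 ± 0.36 (SE) on the log2 scale, a 7.45-fold higher measured intensity. Within embryos it ran from 1.46 in WT embryo 3 to 4.54 in WT embryo 2. In bulk cultures, a change in the number of cells of a type and a change in RNA per cell cannot be told apart.

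Nefm, which partners Nefl in the axonal filament, separated the cultures less. Its total RNA values were 6.82, 8.45 and 7.02 in Eif4e+/- transformed cultures and 9.16, 10.56 and 7.67 in WT transformed cultures. The untransformed cultures had 7.29, 7.15 and 7.07 in Eif4e+/- cells and 6.97, 7.41 and 7.16 in WT cells. The states overlapped, since transformed cultures of Eif4e+/- embryos 1 and 3 had less Nefm than their untransformed counterparts, by differences of -0.47 and -0.04, while that of Eif4e+/- embryo 2 had more, by 1.30. The transformed culture of Eif4e+/- embryo 1 was at background, and that of embryo 3 had 7.02 against a limit of 6.88. Above background were 5 of 6 transformed and 6 of 6 untransformed cultures. In WT embryos the differences were 2.19, 3.15 and 0.51. Averaged over genotypes the difference was 1.11 ± 0.36 (SE). Nefl and Nefm are neighbours on chromosome 14 of GRCm38.p6, with 1 annotated gene, the non-coding Gm19216, and 0 protein-coding genes between them.

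Taken over both genotypes, Nes went against the description of these genes as shifted by transformation. Its total RNA values were 8.29, 9.17 and 8.43 in Eif4e+/- transformed cultures and 9.01, 8.85 and 9.15 in WT transformed cultures. In untransformed cultures they were 9.22, 9.40 and 9.28 in Eif4e+/- cells and 8.88, 8.79 and 9.42 in WT cells. Over both genotypes the states overlapped, and the mean difference was -0.35 ± 0.11 (SE), with -0.94, -0.23 and -0.85 in the Eif4e+/- embryos and 0.14, 0.05 and -0.27 in the WT embryos. In Eif4e+/- cells alone, every transformed value lay below every untransformed value. The mean difference was -0.67 ± 0.15 (SE) there and -0.03 ± 0.15 in WT cells, where the states overlapped. This contrast between the genotypes did not pass as an interaction (adjusted p = 0.916, limma). All 12 cultures were above background in total RNA, so nestin mRNA was present in both states.

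The transcription factor gene Sox2 was higher in transformed cells of every embryo. Its total RNA values were 9.49, 9.46 and 10.01 in Eif4e+/- transformed cultures and 8.63, 10.00 and 7.49 in WT transformed cultures. The untransformed cultures had 6.78, 6.61 and 6.5 in Eif4e+/- cells and 6.85, 6.47 and 6.66 in WT cells. The states did not overlap, and 3 of 6 untransformed cultures exceeded background. The mean difference was 2.54 ± 0.32 (SE), a 5.80-fold higher measured intensity, and it ran from 0.83 in WT embryo 3 to 3.53 in WT embryo 2. With some untransformed cultures at background, that fold is of measured values only. The 3 Eif4e+/- embryos, at 2.71, 2.85 and 3.51, lay closer together than the WT embryos.

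Slitrk6, a transmembrane protein needed for innervation of the inner ear, was also higher in transformed cells of every embryo. Its total RNA values were 8.94, 9.78 and 8.76 in Eif4e+/- transformed cultures and 7.37, 10.38 and 7.14 in WT transformed cultures. The untransformed cultures had 5.82, 6.81 and 6.01 in Eif4e+/- cells and 5.09, 7.79 and 6.34 in WT cells. The states overlapped because the untransformed culture of WT embryo 2 exceeded the transformed cultures of WT embryos 1 and 3. Embryo 2 was the highest of its genotype in both states, and the difference within embryos was positive in 6 of 6, from 0.81 to 3.12. The mean difference was 2.42 ± 0.22 (SE) in measured values, and no fold is given because 4 of 6 untransformed cultures were not above background.

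The microtubule genes took the opposite direction. Stmn2 had 6.66, 7.57 and 7.12 in total RNA of Eif4e+/- transformed cultures and 6.34, 6.84 and 6.41 in WT transformed cultures. It had 10.09, 9.37 and 9.73 in Eif4e+/- untransformed cultures and 10.32, 9.79 and 9.46 in WT untransformed cultures. Each transformed culture lay below each untransformed culture, and 3 of 6 transformed cultures exceeded background. The mean difference was -2.97 ± 0.22 (SE), a 7.84-fold lower measured intensity, and ran from -3.98 in WT embryo 1 to -1.79 in Eif4e+/- embryo 2. Because some transformed cultures were at background, the fold is of measured values only.

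Tubb3 stayed above background in all cultures. It had 7.76, 7.95 and 8.01 in total RNA of Eif4e+/- transformed cultures and 7.72, 7.56 and 7.59 in WT transformed cultures. It had 10.60, 10.01 and 10.44 in Eif4e+/- untransformed cultures and 10.69, 10.32 and 9.78 in WT untransformed cultures. The states did not overlap, and the mean difference was -2.54 ± 0.13 (SE), a 5.82-fold lower level in transformed cells. The difference within embryos varied little, from -2.97 to -2.07.

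Among the surface proteins, Ptprz1 showed the widest gap in measured intensity of the 10 genes. Its total RNA values were 5.0, 4.97 and 4.94 in Eif4e+/- transformed cultures and 4.90, 4.89 and 4.92 in WT transformed cultures. It had 9.57, 9.40 and 9.32 in Eif4e+/- untransformed cultures and 10.10, 8.93 and 9.57 in WT untransformed cultures. No transformed culture exceeded background, so the size of the gap has only a bound, and Ptprz1 was at least 6.67-fold lower in transformed cells, with measured means of 4.94 and 9.48.

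Ncam1 was lower in transformed cells but remained detected in all of them. It had 8.45, 9.45 and 8.41 in Eif4e+/- transformed cultures and 7.52, 8.36 and 8.52 in WT transformed cultures, against 10.90, 11.04 and 11.04 in Eif4e+/- untransformed cultures and 10.94, 10.71 and 11.16 in WT untransformed cultures. The states did not overlap, and the mean difference was -2.52 ± 0.18 (SE), a 5.72-fold lower level. Within embryos the difference ran from -3.42 in WT embryo 1 to -1.60 in Eif4e+/- embryo 2.

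Lrrc4c, the netrin-G1 ligand of axons and synapses, had 5.86, 6.14 and 5.78 in total RNA of Eif4e+/- transformed cultures and 5.87, 5.65 and 6.24 in WT transformed cultures. It had 8.78, 9.35 and 8.54 in Eif4e+/- untransformed cultures and 9.11, 8.36 and 9.17 in WT untransformed cultures. As for Ptprz1, 0 of 6 transformed cultures exceeded background, against 6 of 6 untransformed cultures, and the gene was at least 4.41-fold lower in transformed cells, with measured means of 5.93 and 8.88. The mean difference of measured values was -2.96 ± 0.09 (SE).

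**Figure D1:**
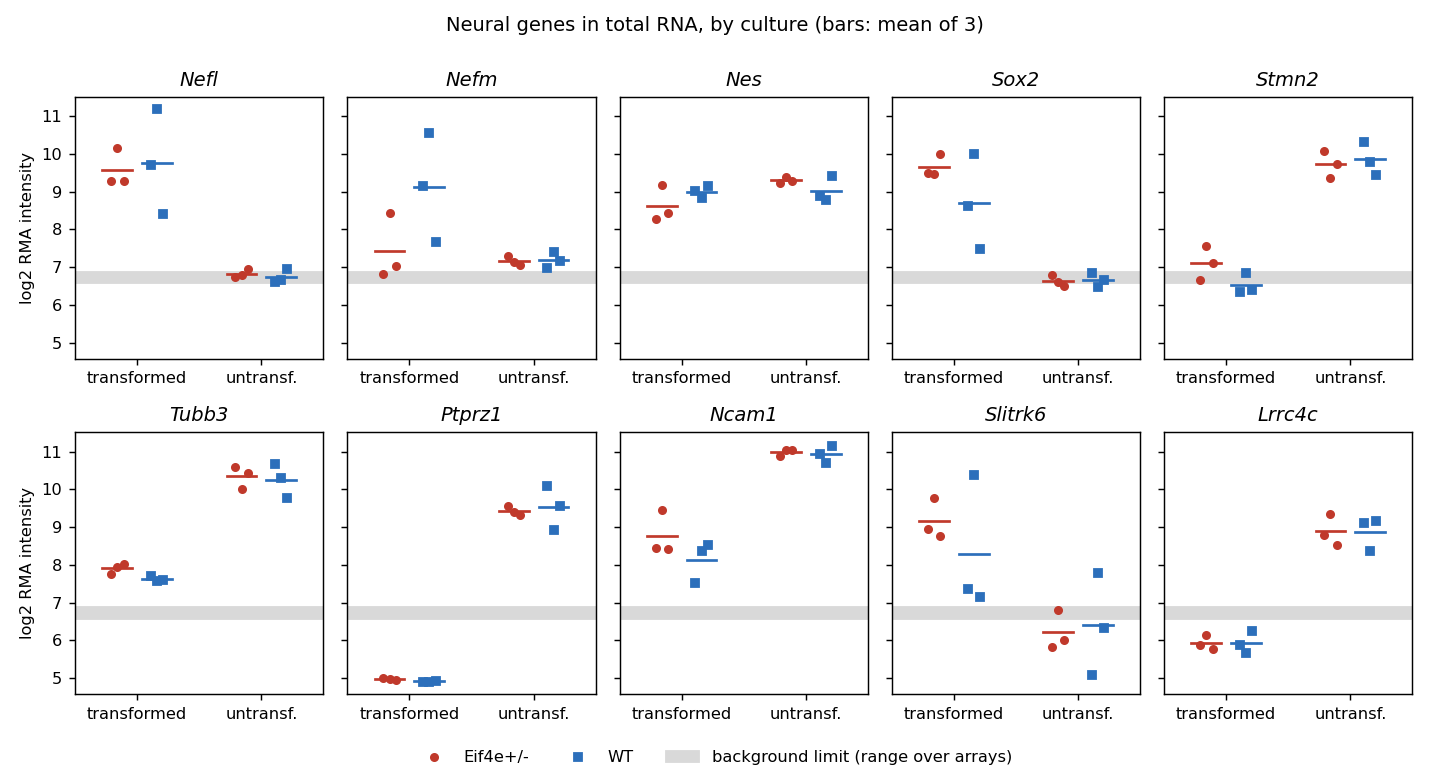
Log2 RMA intensity of the 10 genes in total RNA (vertical axis), with 1 point per culture, transformed left of untransformed and Eif4e+/- left of WT, bars at the mean of 3 cultures and a grey band for the background limit over the arrays. Nefl and Sox2 lie higher in all transformed cultures, Stmn2, Tubb3, Ptprz1, Ncam1 and Lrrc4c lie lower in all of them, and Nefm, Nes and Slitrk6 overlap.

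By culture, 2 of the 10 genes (Nefl and Sox2) were higher in every transformed than in every untransformed culture in total RNA, where 8.06% of all 14830 genes tested did so, and 5 (Stmn2, Tubb3, Ptprz1, Ncam1 and Lrrc4c) were lower in every transformed culture, where 9.47% of all genes did so. Because the genes were picked on this contrast, nothing is read from these counts. The SD over the 6 embryo differences was 1.05 for Nefl, 1.05 for Sox2, 0.74 for Stmn2, 0.59 for Ncam1 and 0.37 for Tubb3, and of these 5 genes Ncam1 and Tubb3 were above background in all 12 cultures. WT embryo 3 had the smallest difference of the 6 embryos for Nefl, Sox2 and Slitrk6, and WT embryo 2 the largest for Nefl, Nefm and Sox2.

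**Figure D2:**
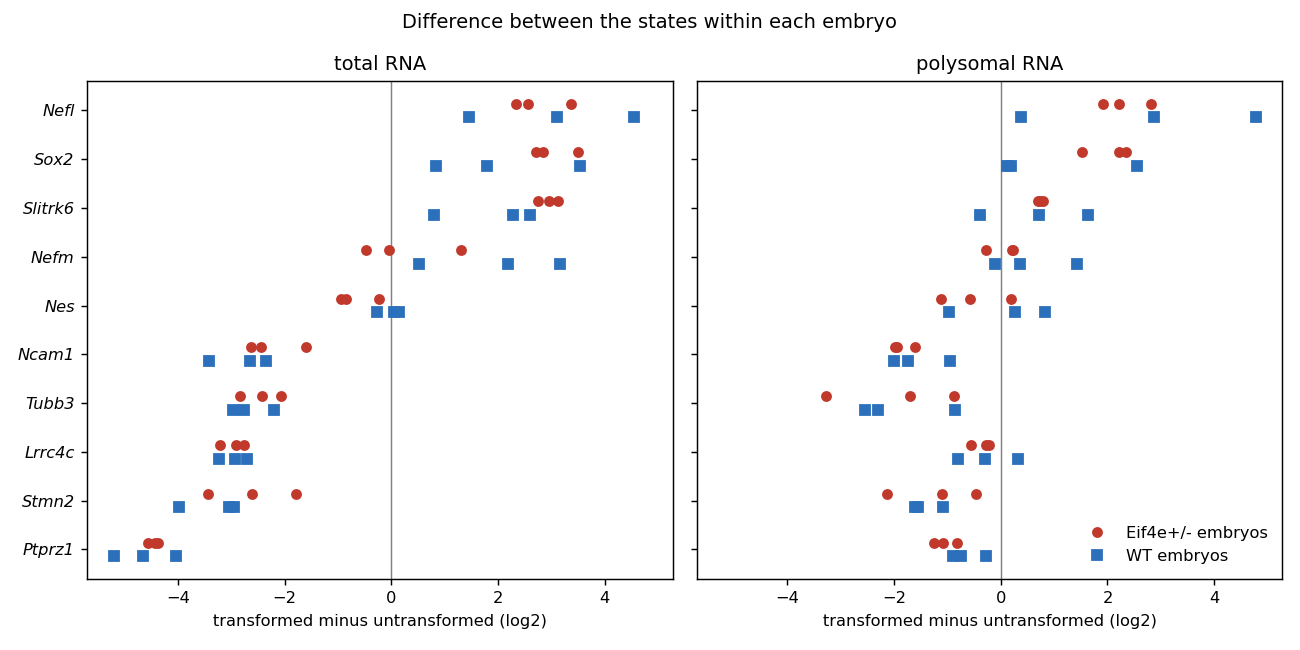
Transformed minus untransformed log2 intensity within each of the 6 embryos (horizontal axis) in total RNA (left) and polysomal RNA (right), with Eif4e+/- embryos above WT embryos for each gene. In total RNA Nefl, Sox2 and Slitrk6 are right of 0 in 6 of 6 embryos, Ncam1, Tubb3, Lrrc4c, Stmn2 and Ptprz1 are left of 0 in 6 of 6, and in polysomal RNA the differences of most genes lie closer to 0.

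In polysomal RNA the measured Nefl and Sox2 values kept their direction in every embryo. The transformed culture of WT embryo 3 was at background for both genes. Nefl had 4.92, 5.58 and 5.06 in Eif4e+/- transformed cultures and 5.74, 7.88 and 3.14 in WT transformed cultures, against 3.00, 2.76 and 2.84 in Eif4e+/- untransformed and 2.86, 3.10 and 2.75 in WT untransformed cultures. The measured values did not overlap, and 5 of 6 transformed and 0 of 6 untransformed cultures exceeded background. WT embryo 3 (3.14 against 2.75) was at background in both states, so its direction cannot be read. The transformed mean lay 4.05-fold above the mean background limit of the untransformed arrays (measured difference 2.50 ± 0.47, SE, or 3.55 without the 2 arrays of smallest SD). Sox2 had 5.60, 4.89 and 6.11 in Eif4e+/- transformed cultures and 4.08, 6.08 and 3.42 in WT transformed cultures, against 3.39, 3.36 and 3.77 in Eif4e+/- untransformed and 3.96, 3.53 and 3.23 in WT untransformed cultures. Here the states overlapped, through WT embryo 3 alone, and the difference was 1.49 ± 0.32 (SE), with 0.12 in WT embryo 1 and 0.20 in WT embryo 3. In WT embryo 3 the limits were 3.47 for the transformed and 3.21 for the untransformed culture, so the Sox2 direction cannot be read there either. Without the 2 arrays of smallest SD the Sox2 difference was 2.29 and the states did not overlap.

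The microtubule genes and Ncam1 were lower in polysomal RNA of every transformed culture as well. Tubb3 had 3.76, 4.34 and 3.97 in Eif4e+/- transformed cultures and 3.86, 3.46 and 3.51 in WT transformed cultures, against 7.04, 5.22 and 5.68 in Eif4e+/- untransformed and 4.71, 5.77 and 6.06 in WT untransformed cultures. The difference was -1.93 ± 0.33 (SE), a 3.81-fold lower level, and -2.13 without the 2 arrays. Ncam1 had 3.69, 3.55 and 3.44 in Eif4e+/- transformed cultures and 3.57, 3.24 and 3.8 in WT transformed cultures, against 5.30, 5.52 and 5.38 in Eif4e+/- untransformed and 5.31, 5.25 and 4.74 in WT untransformed cultures. The difference was -1.70 ± 0.16 (SE), a 3.25-fold lower level, and -1.93 without the 2 arrays. Stmn2 exceeded background in 0 of 6 transformed and 6 of 6 untransformed cultures and was at least 2.02-fold lower, with measured means of 3.03 and 4.35. Its measured difference was -1.33, and -1.16 without the 2 arrays.

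The other surface and filament genes were near background in polysomal RNA. Lrrc4c exceeded it in 0 of 12 cultures, so no fold is given. Ptprz1 exceeded it in 0 of 6 transformed and 2 of 6 untransformed cultures, with values of 2.23 to 2.79 and 3.06 to 3.70. Slitrk6 exceeded it in WT embryo 2 transformed cells alone (3.81), and Nefm in WT embryos 1 and 2 transformed cells (3.52 and 4.24). Nes exceeded it in 3 of 6 transformed and 4 of 6 untransformed cultures. In measured values, 1 of the 10 genes (Nefl) was higher in every transformed culture in polysomal RNA, where 2.84% of all genes were. Lower in every transformed culture were 4 (Stmn2, Tubb3, Ptprz1 and Ncam1), where 2.89% of all genes were. Leaving out the 2 arrays, chosen after the data were seen, added Sox2 to the higher genes, which became 2, and left the count of lower genes at 4.

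**Figure D3:**
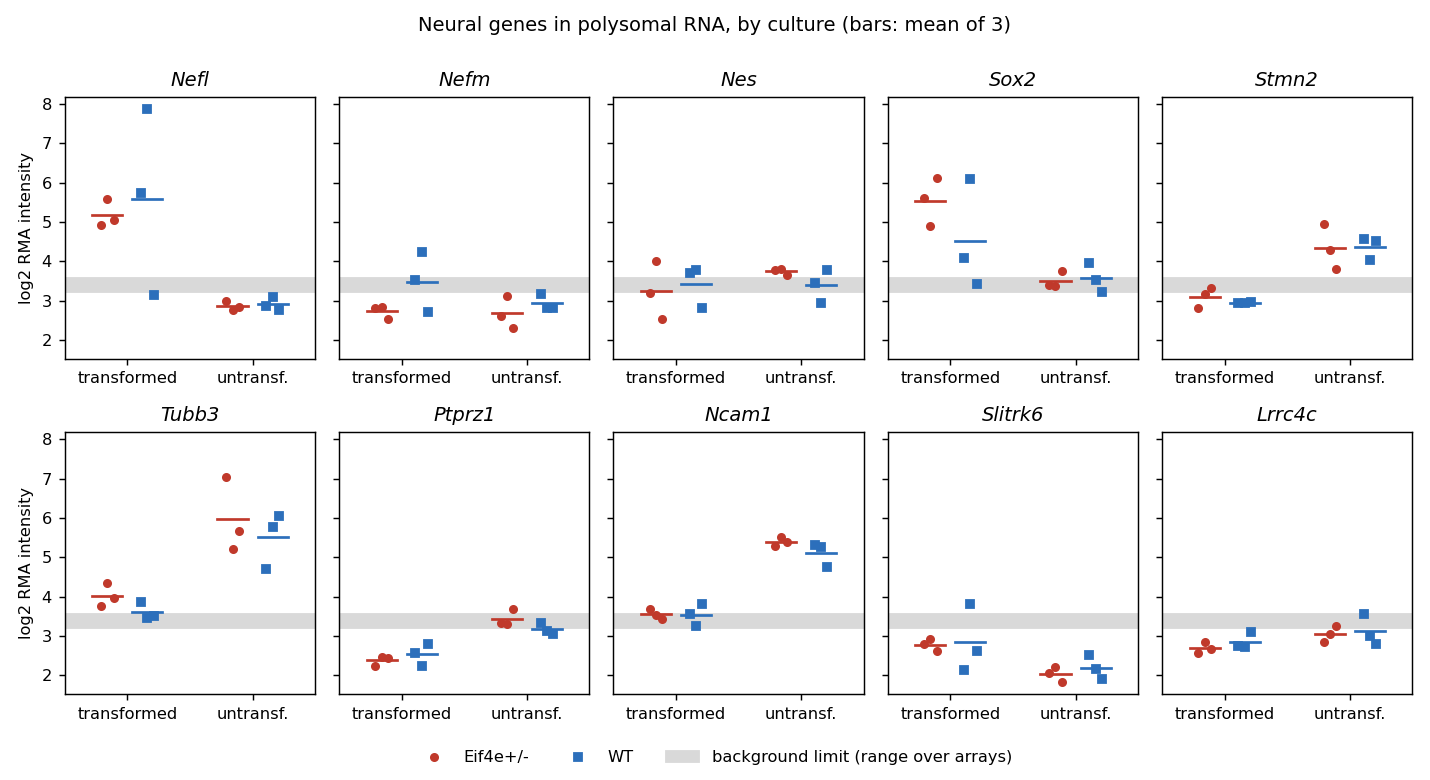
Log2 RMA intensity of the 10 genes in polysomal RNA (vertical axis), with the same layout as for total RNA, 1 point per culture and bars at the mean of 3 cultures. Nefl and Sox2 exceed background in 5 of 6 transformed cultures each, Tubb3 and Ncam1 lie above the grey background band in untransformed cultures, and Slitrk6, Nefm, Ptprz1 and Lrrc4c lie in or below it in most cultures.

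Translational efficiency, the log2 polysomal minus the log2 total value of a culture, is given for Tubb3 and Ncam1, which exceeded background in both fractions throughout. For Tubb3 it was -4.0, -3.61 and -4.04 in Eif4e+/- transformed and -3.86, -4.10 and -4.07 in WT transformed cultures, against -3.56, -4.79 and -4.77 in Eif4e+/- untransformed and -5.98, -4.54 and -3.72 in WT untransformed cultures. The states overlapped, and the difference of 0.61 ± 0.32 (SE) was positive in 4 of 6 embryos and 0.47 without the 2 arrays of smallest SD. For Ncam1 it was -4.76, -5.90 and -4.98 in Eif4e+/- transformed and -3.95, -5.11 and -4.71 in WT transformed cultures, against -5.60, -5.52 and -5.66 in Eif4e+/- untransformed and -5.63, -5.46 and -6.41 in WT untransformed cultures. That difference was 0.81 ± 0.23 (SE), positive in 5 of 6 embryos, and 0.36 without the 2 arrays. For both genes some transformed cultures had polysomal values near the background limit. Ncam1 had 3.24 against 3.23 in WT embryo 2, and Tubb3 had 3.51 against 3.47 in WT embryo 3. A polysomal fall that ends at the limit is cut short, so both differences are of measured values only. The fractions have separate common array levels, so the efficiency values rank cultures for a gene and have no absolute scale. For the other genes some cultures were at background in at least 1 fraction, which holds for the measured differences of 3.70 for Ptprz1 and -1.72 for Slitrk6, and these, 3.28 and -1.58 without the 2 arrays, are not read further.

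The comparison of Eif4e+/- with WT cells was not used to pick the genes and could be tested. In these fits the SE and p of a gene pool the spread over both states. For Nefm in total RNA that spread was unequal. Its SD was 0.89 in Eif4e+/- and 1.45 in WT transformed cultures, against 0.11 and 0.22 in untransformed cultures. In total RNA of transformed cells, Nefm differed by -1.70 ± 0.60 (SE, Eif4e+/- minus WT, adjusted p = 0.422, limma; exact permutation p = 0.2, two-sided), and the groups overlapped. Sox2 differed by 0.95 ± 0.46 (adjusted p = 0.56, limma), Slitrk6 by 0.86 ± 0.83 (adjusted p = 0.765), Ncam1 by 0.64 ± 0.29 (adjusted p = 0.539) and Stmn2 by 0.59 ± 0.28 (adjusted p = 0.545), in each case with the higher mean in Eif4e+/- cultures. None of these passed, and adjusted p-values here are by Benjamini-Hochberg over all 14830 genes. Tubb3 had all Eif4e+/- transformed cultures above all WT transformed cultures (difference 0.28 ± 0.20, adjusted p = 0.692, limma; exact permutation p = 0.1). Ptprz1 did too, by 0.06 and below background, where 10.2% of all genes had genotypes that did not overlap. The difference was -0.20 ± 0.53 for Nefl and -0.38 ± 0.22 for Nes, and 0.01 ± 0.25 for Lrrc4c, which was below background.

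In untransformed cells the genotype means of the 10 genes differed little in total RNA, although single cultures could lie far apart. Slitrk6 had an SE of 0.83, with WT cultures from 5.09 to 7.79. In polysomal RNA of untransformed cells the differences ran from -0.25 for Nefm to 0.46 ± 0.43 (SE) for Tubb3. The differences in total RNA ran from -0.19 for Slitrk6 to 0.27 for Nes, with 0 genes of the 10 free of overlap where 10.9% of all genes were, and with adjusted p-values of 1 after rounding (limma). In polysomal RNA of transformed cells the 2 widest differences were -0.75 ± 0.32 for Nefm and 1.00 ± 0.53 for Sox2 (adjusted p = 1 for each, limma). Without the 2 arrays of smallest SD they were -1.14 for Nefm (adjusted p = 0.764, limma) and 0.45 for Sox2 (adjusted p = 0.983). In translational efficiency of transformed cells Nefm had the smallest p, with 0.95 ± 0.40 (adjusted p = 1, limma), and 1.29 without the 2 arrays (adjusted p = 0.992), where polysomal Nefm was above background in 2 WT cultures and 0 Eif4e+/- cultures.

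Whether transformation acted differently on the genotypes was tested as an interaction, the transformation difference in Eif4e+/- embryos minus that in WT embryos. In total RNA it was -1.69 ± 0.72 for Nefm, -0.65 ± 0.21 for Nes, 1.05 ± 0.44 for Slitrk6 and 0.97 ± 0.64 for Sox2, with an adjusted p of 0.916 for each (limma). Behind the Nefm value stood mean transformation differences of 0.26 in Eif4e+/- and 1.95 in WT embryos, and behind the Sox2 value 3.02 in Eif4e+/- and 2.05 in WT embryos. Over total RNA, polysomal RNA and translational efficiency, 0 of the 10 genes were called in the interaction or in either genotype comparison. Of all genes, 0.0472% (7 genes) were called for genotype in total RNA of transformed cells and 0% in each of the other comparisons. At an unadjusted p under 0.05, the 10 genes gave 2 in the total RNA interaction (Nes and Slitrk6), 1 in total RNA of transformed cells (Nefm), 1 in its polysomal RNA (Nefm), 1 in its translational efficiency (Nefm) and 0 elsewhere. Of all genes, 4.88% passed that level in the total RNA interaction, 9.30% for genotype in total RNA of transformed cells, 3.22% in their polysomal RNA and 2.90% in their translational efficiency.

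**Figure D4:**
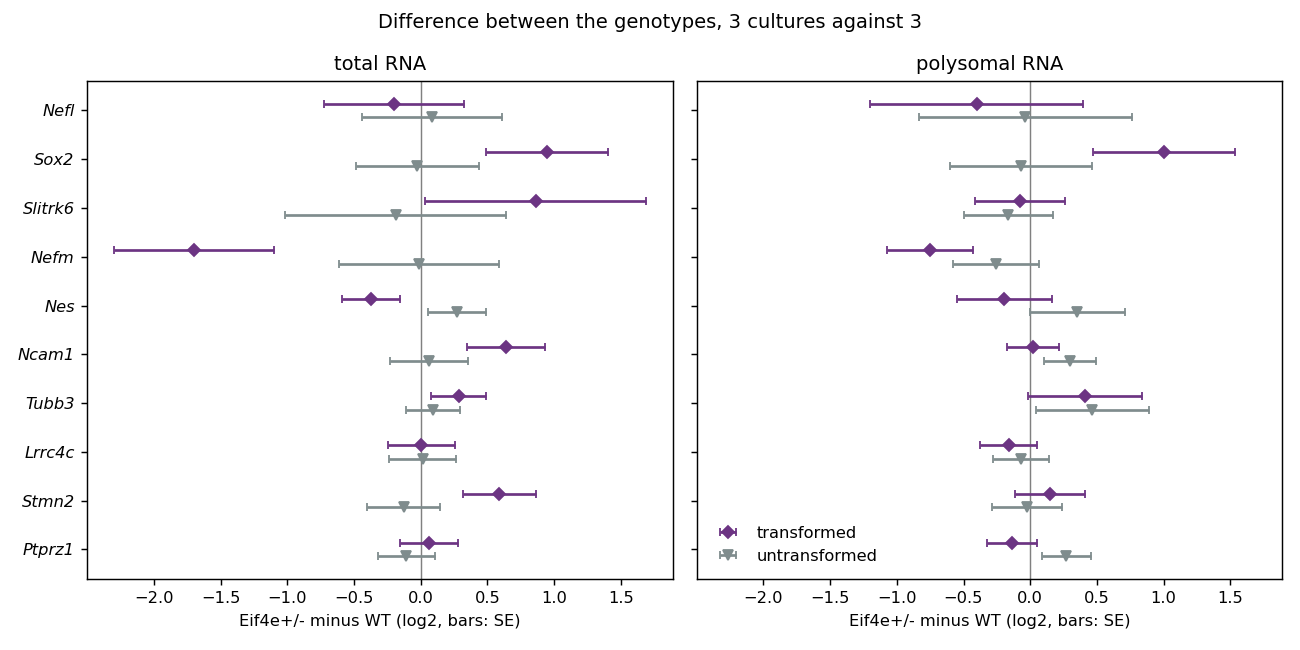
Eif4e+/- minus WT log2 difference of the 10 genes (horizontal axis, with SE bars from limma) in transformed and untransformed cells, in total RNA (left) and polysomal RNA (right). The transformed cells spread from -1.70 for Nefm to 0.95 for Sox2 in total RNA, while the untransformed cells stay between -0.19 and 0.27.

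Other genes of the same families and pathways were taken from lists of relatives, partners and markers. The lists were drawn up with results of these arrays known, so their counts are not an independent comparison with all genes. Of 94 such neural genes tested, 9 rose and 19 fell in transformed cells in total RNA at an adjusted p under 0.05 (limma), where 15% of all genes rose and 15.8% fell, and the median difference was -0.01 against 0.03 over all genes. In polysomal RNA 2 rose and 11 fell, where 3.67% of all genes rose and 4.05% fell. Leaving out Eif4e+/- embryo 2 or Eif4e+/- embryo 3 reduced the 9 to 4, and leaving out WT embryo 2 reduced it to 5. Without the 2 polysomal arrays of smallest SD, 3 rose and 9 fell in polysomal RNA.

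Among the filament relatives 0 of 7 rose and 1 fell in total RNA, namely Des, the desmin of muscle (-0.75 ± 0.06, adjusted p = 0.00045, limma). Vim, the vimentin of mesenchymal cells, was at 12.51 ± 0.09 in transformed and 12.57 ± 0.04 in untransformed cells in total RNA (SD, 6 cultures each) and did not pass. Beta tubulins and stathmins gave 0 rises and 4 falls of 8. Tubb2b, a neuronal beta tubulin, fell by 1.68 ± 0.26 (adjusted p = 0.004, limma) and Tubb2a by 1.46 ± 0.20 (adjusted p = 0.0024), both in 6 of 6 embryos. Tubb5, the common beta tubulin of dividing cells, fell by 0.40 ± 0.05 (adjusted p = 0.00256), and Stmn4 fell by 0.39 ± 0.09 (adjusted p = 0.0162), a call lost without Eif4e+/- embryo 3 (0.0545). The same 4 genes fell in polysomal RNA, where Tubb2b fell by 2.33 ± 0.22. There Tubb2a lost its call without WT embryo 1, WT embryo 2, Eif4e+/- embryo 1 or Eif4e+/- embryo 3 (adjusted p 0.056 to 0.105), and Stmn4 without Eif4e+/- embryo 1 (0.0674) or Eif4e+/- embryo 3 (0.0807). Tubb5 lost it without WT embryo 2 or any Eif4e+/- embryo (0.105 to 0.154) and with trend and robust settings (0.0566).

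No gene related to Sox2 was called higher. Of 10 tested SoxB factors and pluripotency partners 0 rose and 1 fell, Klf4, which reprograms cells together with Sox2 (-0.67 ± 0.19, adjusted p = 0.0378, limma, lower in 5 of 6 embryos), a call lost without WT embryo 1 (0.0579), Eif4e+/- embryo 1 (0.121) or Eif4e+/- embryo 3 (0.111). Pou5f1, Esrrb and Zfp42, of the pluripotent cell, exceeded background in 0 of 6 transformed and 0 of 6 untransformed cultures in total RNA. In the Slitrk and netrin-G ligand list 1 of 8 rose and 1 fell. Ptprd, a receptor phosphatase that binds Slitrk proteins, fell by 2.77 ± 0.08 (adjusted p = 1.5e-05, limma), with 2 of 6 transformed cultures above background, and its relative Ptprs rose by 0.26 ± 0.08 (adjusted p = 0.042), a call that was lost without any of the 5 embryos other than WT embryo 3 (adjusted p 0.0624 to 0.117). Slitrk1, Slitrk3 and Slitrk4 exceeded background in no culture in total RNA.

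Partners of Ptprz1 and Ncam1 gave 1 rise and 4 falls of 11. Ptn, the pleiotrophin that binds Ptprz1, had 7.89 ± 1.07 in transformed and 10.52 ± 0.36 in untransformed cells (SD, 6 cultures each) and fell by 2.64 ± 0.48 (SE, adjusted p = 0.007, limma). In polysomal RNA it fell by 3.32 ± 0.46 (adjusted p = 0.0066). Tnc, the matrix protein tenascin C, another Ptprz1 ligand, fell by 1.89 ± 0.18 in total (adjusted p = 0.00068, limma) and by 2.75 ± 0.21 in polysomal RNA (adjusted p = 0.00086). Mdk, midkine, fell by 0.43 ± 0.06 (adjusted p = 0.00199, limma), and the FGF receptor Fgfr1 by 0.68 ± 0.16 (adjusted p = 0.0195), which lost its call without WT embryo 1 (0.0652), WT embryo 2 (0.0556) or Eif4e+/- embryo 3 (0.0625). St8sia4, an enzyme that adds polysialic acid to Ncam1, rose by 1.45 ± 0.18 in measured values (adjusted p = 0.0017, limma), in 6 of 6 embryos, with 5 of 6 transformed and 1 of 6 untransformed cultures above background.

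Other neuronal markers moved in both directions, with 3 rises and 6 falls of 18 in total RNA. Gap43, a protein of growing axons, rose by 1.95 ± 0.32 (adjusted p = 0.0048, limma), and by 2.32 ± 0.52 in polysomal RNA (adjusted p = 0.036). Without the 2 arrays of smallest SD the polysomal value was 3.65 (adjusted p = 0.00046, limma), and its call was lost without WT embryo 1 or any Eif4e+/- embryo (0.0763 to 0.128). Snap25, of synaptic vesicle fusion, rose by 1.21 ± 0.35 in measured values (adjusted p = 0.041, limma), with 4 of 6 transformed and 0 of 6 untransformed cultures above background. Its transformed mean lay 1.89-fold above the mean background limit of the untransformed arrays. The Snap25 call was lost without WT embryo 2 (0.109), WT embryo 3 (0.0749), Eif4e+/- embryo 2 (0.0967) or Eif4e+/- embryo 3 (0.11), with trend and robust settings (0.0555) and with array weights (0.0577). The vesicle protein gene Syp rose by 0.23 ± 0.06 (adjusted p = 0.021, limma) and lost its call without WT embryo 2 (0.0574), Eif4e+/- embryo 2 (0.0608) or Eif4e+/- embryo 3 (0.0706). Uchl1, a neuronal deubiquitinase, fell by 1.48 ± 0.11 (adjusted p = 0.00036, limma), Dpysl3, of growth cones, by 1.32 ± 0.23 (adjusted p = 0.006) and the RNA-binding Elavl2 by 0.84 ± 0.11 (adjusted p = 0.0021), at least 1.34-fold. Dcx, Elavl4, Scg2 and Slc17a6, which mark neurons, exceeded background in no culture of either state in total RNA.

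**Figure D5:**
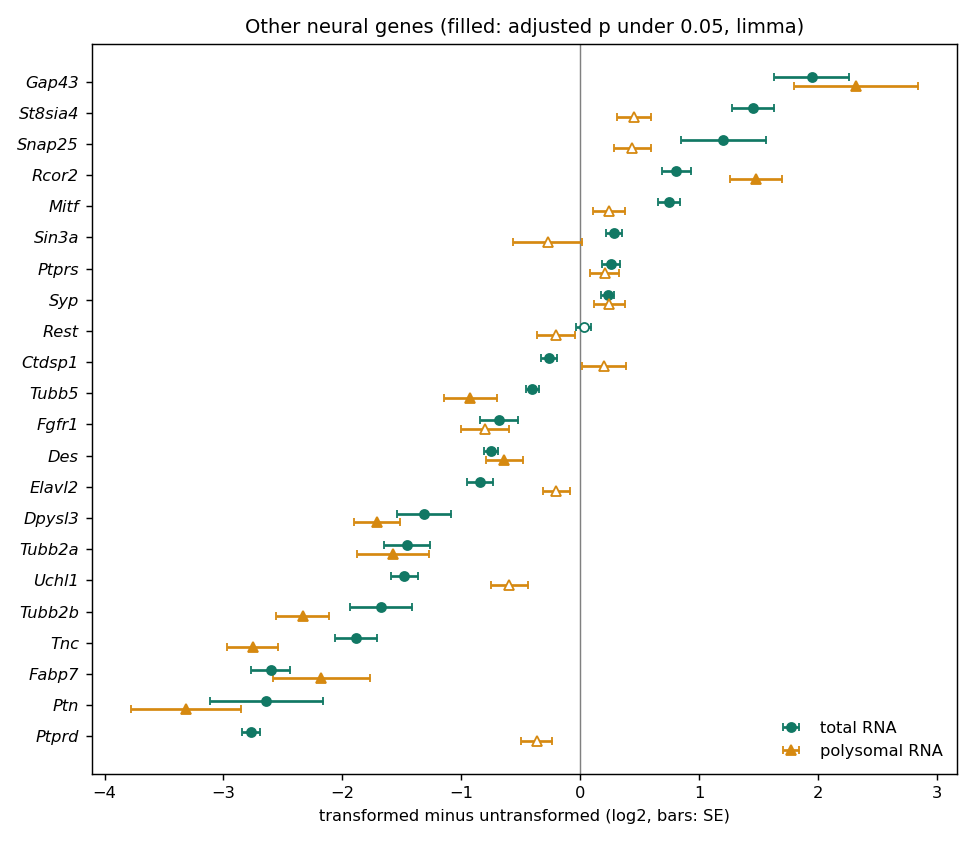
Transformed minus untransformed log2 difference (horizontal axis, with SE bars from limma) of the named genes outside the 10, in total RNA (circles) and polysomal RNA (triangles), filled where the adjusted p was under 0.05. Gap43 lies at 1.95 and 2.32, Ptn at -2.64 and -3.32, and Rest at 0.03 in total RNA without passing the test.

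Progenitor markers gave 0 rises and 1 fall of 11, Fabp7, a fatty acid binding protein of radial glia, which fell at least 4.19-fold (adjusted p = 0.00024, limma) to background in 6 of 6 transformed cultures. Pax6, Prom1, Olig2, Neurog1, Dll1 and Otx2 exceeded background in no culture in total RNA. Crest and glial markers gave 2 rises and 0 falls of 13, Mitf of melanocytes (0.75 ± 0.09, adjusted p = 0.0016, limma, with 3 of 6 untransformed cultures above background) and Slc1a3, a glutamate transporter (0.36 ± 0.10, adjusted p = 0.0348, higher in 4 of 6 embryos). The Slc1a3 call was lost without WT embryo 1 or any Eif4e+/- embryo (0.0529 to 0.0961). Their Sox10 had 7.59 in transformed and 7.66 in untransformed cells and did not pass. In the complex around REST, which silences neuronal genes outside neurons, 2 of 8 rose and 1 fell. Rest itself had 10.22 ± 0.11 in transformed and 10.19 ± 0.08 in untransformed cells (SD, 6 cultures each), a difference of 0.03 ± 0.06 (SE, adjusted p = 0.761, limma). The corepressor gene Rcor2 rose by 0.81 ± 0.12 in total (adjusted p = 0.0037, limma) and by 1.48 ± 0.22 in polysomal RNA (adjusted p = 0.0077), where its call was lost without Eif4e+/- embryo 3 (0.0502). Sin3a rose by 0.28 ± 0.07 (adjusted p = 0.0229) and Ctdsp1 fell by 0.26 ± 0.07 (adjusted p = 0.0266), and each lost its call when WT embryo 1, WT embryo 2, Eif4e+/- embryo 1 or Eif4e+/- embryo 3 was left out (Sin3a also without Eif4e+/- embryo 2), with adjusted p-values of 0.0512 to 0.0764 for Sin3a and 0.0563 to 0.0821 for Ctdsp1.

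Markers of other cells of the embryo differed between the states beside these genes, and their part in the neural values was not tested. Of 12 fibroblast markers 7 fell and 0 rose in total RNA (median -0.59), and their summed level on the log2 scale was 13.43 to 14.09 in Eif4e+/- transformed and 13.19 to 13.78 in WT transformed cultures, against 14.39 to 14.52 in Eif4e+/- untransformed and 14.48 to 14.54 in WT untransformed cultures. Of 5 leukocyte markers tested 3 fell (Lyz2, Ptprc and Csf1r) and 1 rose (Cd14, 0.75 ± 0.14, SE, in 6 of 6 embryos). Cd68 did not pass (0.79 ± 0.31, adjusted p = 0.0986, limma) but was higher in 6 of 6 embryos, at up to 11.27 in transformed cultures. Lyz2 and Ptprc, and the untested Adgre1 and Itgam, were at background in 6 of 6 transformed cultures. The summed leukocyte markers were 9.78 to 9.88 in Eif4e+/- transformed and 10.06 to 11.56 in WT transformed cultures, against 10.53 to 11.02 in Eif4e+/- untransformed and 10.74 to 11.24 in WT untransformed cultures. Of 5 endothelial markers tested 2 fell (Kdr and Emcn, at background in 6 of 6 transformed cultures) and 1 rose. The riser was Cdh5 (0.54 ± 0.13, SE, in 6 of 6 embryos), with 3 of 6 transformed and 1 of 6 untransformed cultures above background. Pecam1, which was not tested, was at background in all cultures of both states. Of 6 epithelial markers 1 rose (Krt18, 1.76 ± 0.41, adjusted p = 0.018, limma, lost without Eif4e+/- embryo 1 at 0.0584 or Eif4e+/- embryo 3 at 0.063) and 0 fell, and of 6 skeletal muscle markers 3 fell and 0 rose. The summed crest and glial markers were 11.22 to 11.33 in Eif4e+/- transformed and 11.24 to 11.30 in WT transformed cultures, against 11.11 to 11.25 in Eif4e+/- untransformed and 11.19 to 11.30 in WT untransformed cultures. Of the 16 genes summed, 4 exceeded background in no transformed culture and 5 in no untransformed culture. The sum is thus in part background and does not measure the content of such cells.

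Likeness of pattern was measured by Pearson's r over the 12 total RNA values, as a description across cultures that share embryos and states. Closest to Nefl were Rpl23 (0.985), 2610507B11Rik (0.979) and Hccs (0.976), which moved over a narrower range, Rpl23 having 11.69 to 11.98 in transformed and 11.36 to 11.52 in untransformed cultures. Closest to Stmn2 were the adhesion molecule gene Mcam (0.995), Dipk2a (0.991) and the cadherin gene Cdh10 (0.986). Mcam had 8.03 to 8.90 in transformed and 11.14 to 11.74 in untransformed cultures, and Cdh10 had 5.55 to 6.92 in transformed and 9.86 to 10.22 in untransformed cultures. For all of them the states did not overlap, as for Nefl and Stmn2 themselves.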

How the data were processed

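Total and polysomal RNA of 12 fibroblast cultures was measured on 24 arrays. Per the labels' protocols, polysomal RNA came from extracts of cells given cycloheximide at 100 µg/ml and sedimented through 10 to 50% sucrose. The authors deposited log2 RMA intensity, per the submitters' processing notes. Version, chip definition and filters: not given in the sources used here. Means per array were 7.47 to 7.50 in total and 3.78 to 3.79 in polysomal RNA, so the fractions have separate levels.

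Of 25668 probe sets, 20777 had 1 gene symbol, 232 several and 4659 none in the platform annotation. Probe sets with several or none were left out, and the brightest of a gene's probe sets was used (564 genes had more than 1). Genes exceeding the 40th percentile of 3 or more arrays were tested (14830). Values were fitted with limma 3.58.1 in R 4.3.3 (lmFit, eBayes, Benjamini-Hochberg adjusted p under 0.05). Transformation and interaction fits had embryo as a block (4 residual degrees of freedom), since both states of each embryo are labelled as matched. Deviations from group means correlated within embryos at -0.06 to 0.22 in total RNA, -0.44 to 0.06 in polysomal RNA and -0.41 to 0.10 in translational efficiency. Genotype fits used 4 group means (8 residual degrees of freedom) and a common variance per gene over both states. Replicates are separate embryos. A fold against a state with no culture above background was taken against the higher of the value and the background limit on each array. The brighter state entered with its measured mean, also where some of its cultures were at background. The number of arrays limits the precision.

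The members and lists were chosen with earlier results of these data known. From each neural list the up to 3 largest rises and falls in total RNA that were called and had the same direction in all 6 embryos are named, with Rest, the 3 genes most like Nefl and the 3 most like Stmn2. Klf4, Vim, Mdk, Stmn4, Slc1a3, Sox10, Krt18 and the named leukocyte and endothelial markers were added after their values were seen. For the leukocyte and endothelial markers no values under the alternatives are given. Alternatives were no block, a block on the embryo number shared by the genotypes, each embryo left out, quantile normalization, median centring, no filter, the mean of a gene's probe sets, eBayes with trend and robust settings, and array weights. The fits were tested on simulated data.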

Additional observations from a re-analysis of the deposited data

How the results depend on the processing

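The alternatives kept the direction of the 10 genes' transformation differences in 407 of 410 values, the other 3 being of Nes (polysomal -0.23, 0.022 without WT embryo 3 and 0.17 without the 2 polysomal arrays of smallest SD; translational efficiency 0.12, -0.061 without WT embryo 2), and 0 of the 10 were called for genotype or interaction in any alternative. The count of members higher in every transformed culture in polysomal RNA was 1 and ran from 1 to 2 when embryos were left out, with Slitrk6 joining without WT embryo 1 and Sox2 without WT embryo 3, and was 2 without the 2 polysomal arrays of smallest SD (Sox2), an alternative chosen after seeing the data. Of the other neural genes, the 9 that rose in total RNA ran from 4 to 10 when embryos were left out. In polysomal RNA the 2 that rose ran from 0 to 5 and the 11 that fell from 4 to 13. Without the replicate block 4 rose in polysomal RNA, also with array weights, and the paired fit changed no other count by over 1.5 times. The block on the number shared by the genotypes changed no genotype call. Named genes outside the 10, in total RNA and, for the 8 with a named polysomal call, in polysomal RNA, kept their side of the threshold in 435 values, and 52 lost the call without changing direction. All 8 polysomal calls held without the 2 polysomal arrays of smallest SD. Directions turned in 9 values, each of a difference that did not pass: Rest (main 0.03, leave-one-out range -0.0092 to 0.078), Nefl between genotypes in transformed cells (-0.20, range -0.89 to 0.52), Slitrk6 between genotypes in untransformed cells (-0.19, range -0.85 to 0.50, and 0.0091 without Eif4e+/- embryo 1), and Lrrc4c between genotypes in transformed cells (0.01, range -0.13 to 0.17, and -0.016 after quantile normalization or median centring). Leaving out an embryo leaves fewer samples, and no other cause was tested. Signal over background limits the polysomal values of Lrrc4c, Ptprz1, Slitrk6, Nefm, Nefl, Nes and Stmn2. It also limits the transformed polysomal values of Tubb3 and Ncam1, the untransformed polysomal values of Sox2, and polysomal Sox2 of transformed WT embryo 3. In total RNA it limits the transformed values of Ptprz1, Lrrc4c and Stmn2 and the untransformed values of Nefl, Sox2 and Slitrk6. Total RNA Nefm of transformed Eif4e+/- embryo 1 was at background too.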
